A study of Mus musculus with 9 samples.

Results

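Interferon-induced genes and the interferon regulatory factors (IRFs) were followed in Hepa1-6 cells, a mouse hepatoma line, under the pleuromutilin antibiotics lefamulin and tiamulin. The group was taken by name from the count table, as protein-coding genes with symbols of the Ifi, Ifit, Ifitm, Isg, Oas, Gbp, Irgm and Irf series, together with a set of further genes by name, among them Stat2, Mx1, Mx2, Rsad2, Bst2, Usp18, Ifih1, Dhx58, Iigp1, Igtp, Xaf1, Trim25, Parp14 and Zbp1. It held 84 of the 56748 genes in the table. The rule used names and no measured values, although the set was proposed when earlier results of these data were known. RNA-Seq compared 3 groups of 3 libraries, cells without drug, cells given 37 µg/mL lefamulin and cells given 37 µg/mL tiamulin, and treatment lasted 2 days per the labels. The labels describe the control cells as not manipulated, whereas the study's methods name a vehicle control. All groups were the same line, cultured in medium with serum and penicillin-streptomycin, and nothing shows whether the libraries of a group came from separate cultures, so the p values measure the spread between these libraries.

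Interferons are secreted proteins by which infected cells warn their neighbours. Type I and type III interferons act through receptors and Janus kinases on STAT proteins such as STAT2, which join IRF9 and bind the interferon-stimulated response element (ISRE), while interferon gamma acts through the gamma-activated site (GAS). The genes switched on include antiviral effectors such as Mx, Oas, Ifit and Ifitm proteins, GTPases that attack intracellular pathogens, sensors that detect foreign nucleic acid, and inhibitors such as Usp18 that end the response. IRFs bind related DNA motifs, and some drive the interferon genes themselves.

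The libraries held 15568887 to 18008105 counts on genes. Tiamulin 2 stood apart from the other libraries of its group, with a chi-square per degree of freedom of 16.3 against tiamulin 1 and 18.6 against tiamulin 3, where the other pairs within groups lay between 2.79 and 6.91. Its deviation from the group mean followed the GC content of genes (Spearman's rho 0.696 across 10313 genes, a description). Other libraries had such trends too, with rho 0.497 for control 1, -0.496 for control 2, -0.536 for tiamulin 1 and -0.58 for tiamulin 3. The rest lay between -0.145 and 0.185. Values without tiamulin 2 are given for those of the 84 genes whose call then changed. The pathway lists further on were not refitted without it. The hepatoma markers Alb, Afp, Krt8 and Krt18 were present in every library, Apoa1, Ttr and Serpina1b were at or near 0, and the 12 hepatoma markers summed to 3934 to 4126 CPM under lefamulin and 3871 to 4517 under tiamulin, against 4060 to 4342 in the controls. Of the 8 hepatoma markers tested, Trf rose and Alb and Hnf4a fell under lefamulin, Krt18 rose and Alb, Afp and Apob fell under tiamulin, and between the drugs Krt8 and Krt18 were higher and Alb, Afp and Apob lower under tiamulin. The 16 leukocyte markers summed to 12.3 to 12.6 CPM in the controls, 13.2 to 19.6 under lefamulin and 17.0 to 22.7 under tiamulin, and Cd3e, Cd3d, Cd4, Cd8a and Adgre1 had no count in any library. Ptprc and Cd68 were higher and Csf1r lower under both drugs. The 10 endothelial and fibroblast markers summed to 1482 to 1568 CPM in the controls, 1134 to 1188 under lefamulin and 1041 to 1130 under tiamulin. Dcn, the proteoglycan decorin, made up 99.3% to 99.8% of that sum and fell under both drugs. Pecam1 was higher under both drugs and Vwf under lefamulin, Col1a1 was not called, and the 6 others had at most 8 counts in a library. In bulk RNA, fewer cells of a type and less RNA per cell cannot be told apart, and the part of these markers in the results below was not tested.

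Most interferon-induced genes were expressed at low levels in these cells. On the FPKM scale, which divides by gene length and allows levels to be compared between genes, 10 of the 84 genes had a mean of 10 or more in the controls, 25 had 1 to under 10, 36 were above 0 and under 1, and 13 had no count. Of the latter, 5 had no count in any library, where a count of 0 allows up to 3 counts by counting error. The highest mean FPKM in the controls belonged to Ifitm3 (171 ± 16.9, SD, n = 3), an inhibitor of virus entry at endosomal membranes. Bst2, or tetherin, which holds budding viruses at the cell surface, followed with 66.8 ± 5.02, and Ifitm2, a relative of Ifitm3, with 64.1 ± 4.91. The levels of Bst2 and Ifitm2 did not differ beyond their spread. Isg20l2, a nucleolar exonuclease that processes ribosomal RNA, had 36.1 ± 1.496, and Trim25, a ubiquitin ligase that activates RIG-I signalling, had 27.5 ± 0.383. Several classical interferon-induced genes had low levels. Isg15, the ubiquitin-like modifier, had an FPKM of 2.52 ± 0.207 in the controls, Oasl2 had 0.605 ± 0.147 and Ifit1 had 0.143 ± 0.0767. All 84 genes together took 0.104% to 0.112% of the counts of a library, with no order between the groups.

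**Figure D1:**
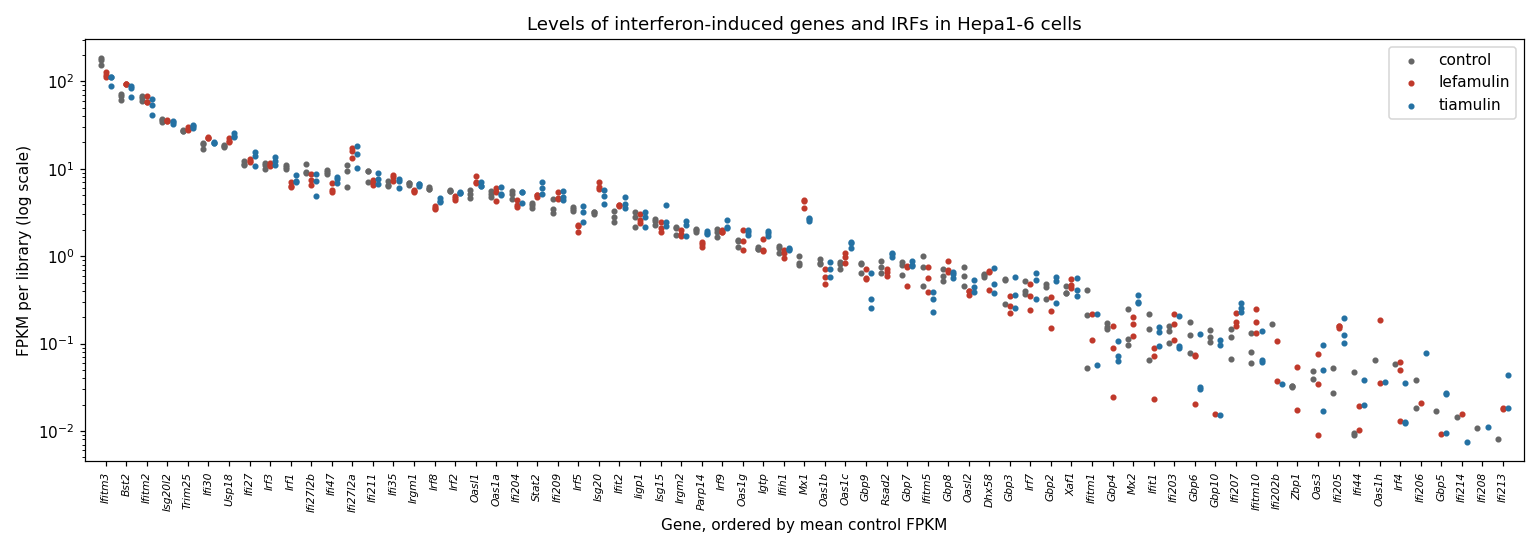
FPKM of 69 genes in each of the 9 libraries on a log axis, ordered by the mean of the 3 control libraries, with control in grey, lefamulin in red and tiamulin in blue. Values of 0 and the 13 genes with no count in the controls cannot be drawn on a log axis and are left out; the genes span from a mean of 171 for Ifitm3 to under 0.01.

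Against the controls, called genes lay in both directions under each drug. Under tiamulin the shares called were near those of all tested genes. After the filter on low counts, 56 of the 84 genes were tested, and the 28 others had at most 14 counts in any library. A gene was called when edgeR's quasi-likelihood test gave a Benjamini-Hochberg adjusted p below 0.05 over all 14510 tested genes. Under lefamulin 9 genes rose, which is 16.1% of the 56, beside 7.09% of all tested genes, and 8 fell, which is 14.3% beside 6% of all tested genes. The 9 were Mx1, Isg20, Ifi205, Ifi27l2a, Oasl1, Bst2, Ifit2, Stat2 and Usp18, and the 8 were Irf8, Irf1, Irf5, Ifi47, Parp14, Ifitm3, Irgm1 and Irf2. Under tiamulin 7 genes rose, or 12.5% of the 56 beside 9.08% of all tested genes, and 4 fell, or 7.14% beside 7.34%. These were Mx1, Ifi205, Oas1c, Stat2, Isg20, Ifit2 and Usp18, which rose, and Gbp9, Ifitm3, Irf1 and Irf8, which fell. The count of 7 became 11 without tiamulin 2, where Bst2, Ifi27l2a, Ifi27 (log2 fold change 0.35, adjusted p = 0.0114), Ifi209 (0.50, adjusted p = 0.00896) and Trim25 (0.14, adjusted p = 0.0408) joined and Ifi205 was lost, and 11.7% of all tested genes were called higher in that fit. It became 5 without tiamulin 1 and 5 without tiamulin 3, beside 7.38% and 7.96% of all tested genes. The spread estimated from all libraries also enters the lefamulin test, where without tiamulin 2 the 9 became 11 with Ifi30 (log2 fold change 0.28, adjusted p = 0.0215) and Ifi209 (0.38, adjusted p = 0.0251), and the 8 became 10 with Ifi204 (-0.36, adjusted p = 0.0123) and Oasl2 (-0.64, adjusted p = 0.0403), beside 12.2% of all tested genes higher and 12.7% lower. The 9 genes of lefamulin became 4 without lefamulin 1, without lefamulin 2 or without lefamulin 3, and 5 without control 1 or without control 2, in fits where 3.84% to 5.08% of all tested genes were called higher. With the study's further threshold of an absolute log2 fold change above 1, 3 genes passed under lefamulin (Mx1, Isg20 and Ifi205, beside 1.51% of all tested genes) and 2 under tiamulin (Mx1 and Ifi205, beside 1.78%), all of them higher. Ifi205, with at most 4 counts in a control library, passed the filter only through treated libraries. Leaving it out, a step chosen after the data were seen, 8 of 55 genes rose under lefamulin and 6 of 55 under tiamulin, with 2 and 1 past the further threshold. The median log2 fold change of the 56 genes was -0.02 under lefamulin and 0.07 under tiamulin, beside medians of 0.00 over all tested genes. The drugs were compared with the same 3 libraries of control cells, so the values are set side by side without a measure of overlap.

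**Figure D2:**
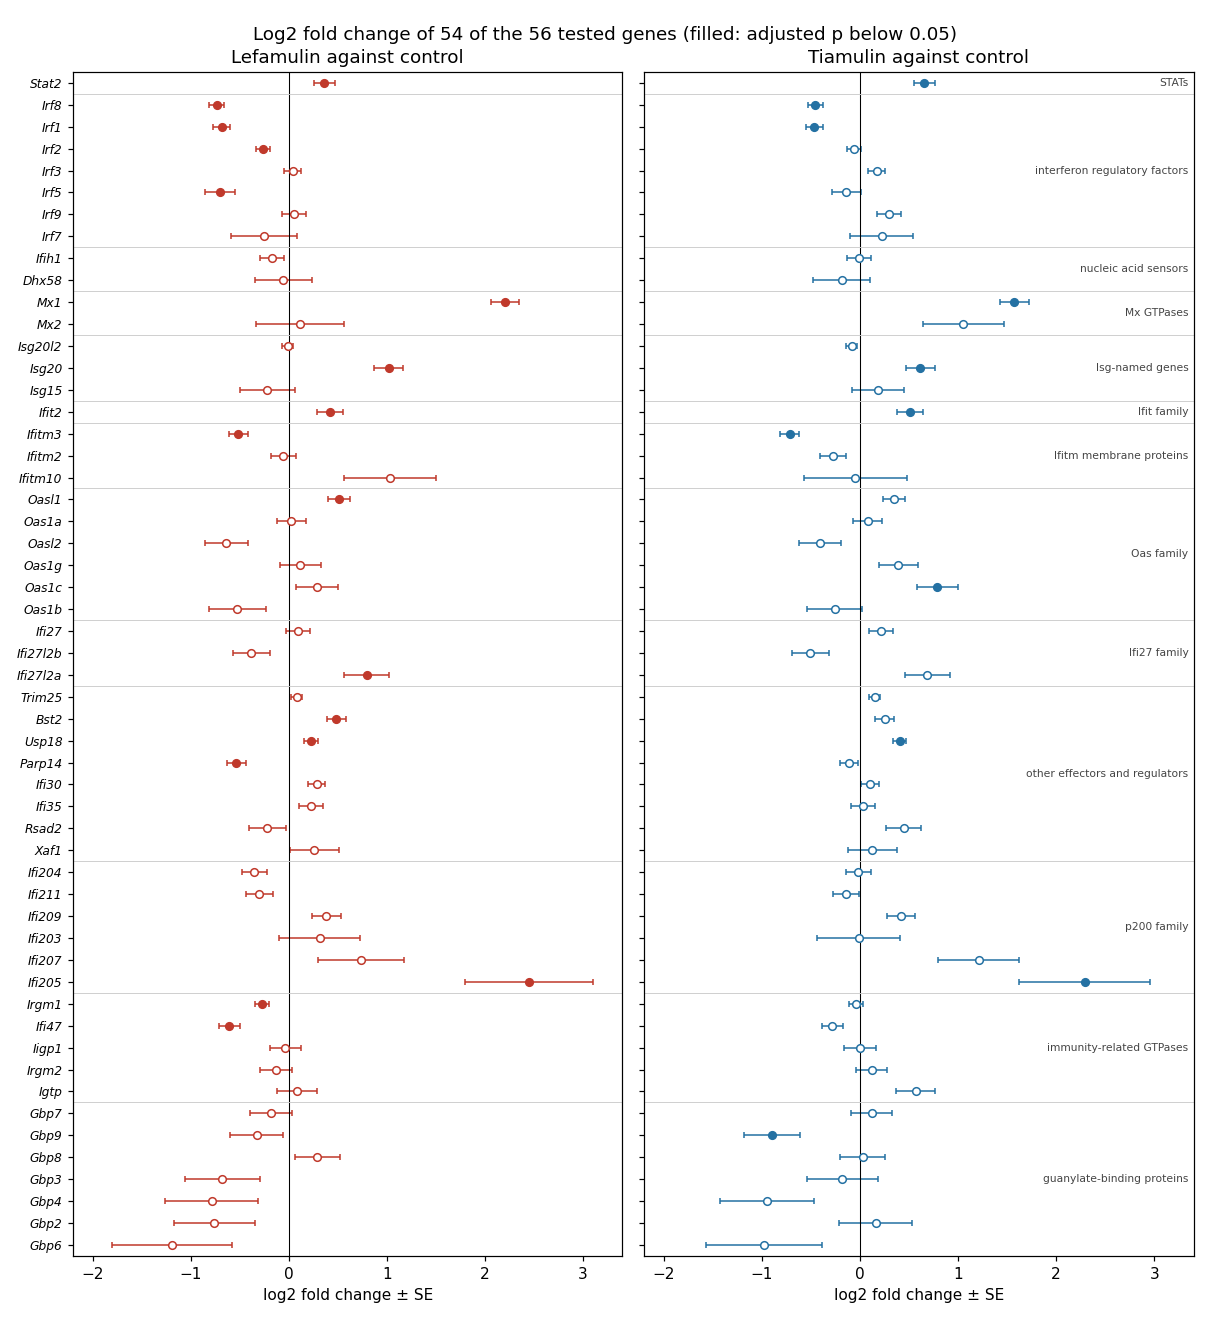
Log2 fold change against control with its standard error for 54 of the 56 tested genes, lefamulin on the left and tiamulin on the right, grouped by family and ordered within a family by control level, with filled symbols for an adjusted p below 0.05. Mx1 stands at 2.20 and 1.57, Irf8 and Irf1 lie left of 0 in both panels, and the rarest genes, such as Gbp6 and Ifi205, have the widest errors.

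The 2 transcription factors called in the same direction under both drugs among the IRFs were Irf1 and Irf8, and both fell. Irf1 (chr11:53770014-53778374, plus strand in GRCm38) is an activator that is itself induced through a GAS element. Its level in CPM, read counts scaled to a common library size by TMM, was 41.8, 39.8 and 44.3 in the controls, 28.1, 24.9 and 25.3 with lefamulin and 28.7, 33.9 and 28.7 with tiamulin. Every treated library lay below every control. The log2 fold change was -0.69 (SE 0.09, adjusted p = 0.000174) under lefamulin and -0.46 (SE 0.09, adjusted p = 0.00247) under tiamulin. Irf8 (chr8:120736358-120756694, plus strand), a factor best known from macrophage and dendritic cell development, had 41.4, 42.1 and 43.8 CPM in the controls, 27.0, 25.1 and 24.4 with lefamulin and 29.9, 32.3 and 30.6 with tiamulin, and the groups did not overlap. It fell by 0.74 (SE 0.08, adjusted p = 2.42e-05) and by 0.46 (SE 0.08, adjusted p = 0.000877) on the log2 scale. These 4 calls held in each of the 9 fits that left out 1 library.

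Of the other IRFs, Irf2 and Irf5 fell under lefamulin. Irf5, which acts downstream of Toll-like receptors, had 9.70, 10.0 and 10.7 CPM in the controls, 5.50, 6.51 and 6.62 with lefamulin and 7.30, 10.9 and 9.42 with tiamulin. The lefamulin libraries lay below the others, and tiamulin overlapped the controls. The log2 fold change of Irf5 was -0.71 (SE 0.15, adjusted p = 0.00746) under lefamulin and -0.14 (SE 0.15, adjusted p = 0.571) under tiamulin. The gene overlaps Tnpo3, which had 26615 counts over the 9 libraries beside 1288 for Irf5 and lies on the opposite strand, and the counting is not stated to have used strand. Irf2, which binds the same sites as Irf1 and can repress them, had 42.0, 41.1 and 41.8 CPM in the controls, 34.9, 36.0 and 33.0 with lefamulin and 39.7, 40.4 and 39.5 with tiamulin, and fell by 0.27 under lefamulin (SE 0.07, adjusted p = 0.0227). Without any of the 3 control or 3 lefamulin libraries, the adjusted p of Irf2 lay between 0.0511 and 0.102. The call was also lost with no filter and with the replicate number as a block (adjusted p = 0.0587 and 0.0584).

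Irf3 and Irf7, the factors that switch on interferon genes, were not called. Irf3 had 39.8, 34.5 and 38.6 CPM in the controls, 38.1, 37.3 and 40.5 with lefamulin and 42.5, 46.4 and 38.0 with tiamulin, with overlap of all groups and adjusted p values of 0.835 and 0.224. Irf7 was rare, with 26, 24 and 35 counts in the controls, 21, 30 and 15 with lefamulin and 33, 39 and 21 with tiamulin. Its log2 fold changes of -0.25 and 0.22 had 95% intervals of -0.97 to 0.46 and -0.47 to 0.91, and it overlaps Phrf1, with 29264 counts. Irf4, a lymphocyte factor, had at most 5 counts in a library.

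Stat2, a signal carrier of the type I and type III receptors, rose under both drugs. Stat2 (chr10:128270559-128292849, plus strand) had 24.4, 23.1 and 21.2 CPM in the controls, 30.1, 30.1 and 28.0 with lefamulin and 36.2, 41.4 and 30.6 with tiamulin. All 6 treated libraries lay above the controls. Stat2 rose by 0.36 on the log2 scale (SE 0.11, adjusted p = 0.04) under lefamulin and 0.65 (SE 0.11, adjusted p = 0.000712) under tiamulin. The lefamulin call did not hold without any of the 3 controls, any of the 3 lefamulin libraries or tiamulin 1, where the adjusted p lay between 0.0525 and 0.168. Irf9, which carries the complex with STAT2 to DNA, had 11.03, 10.1 and 9.05, 10.3, 10.3 and 10.7 and 11.4, 14.1 and 11.6 CPM in the controls, under lefamulin and under tiamulin, with adjusted p values of 0.83 and 0.118.

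The promoters of 4 of these genes are printed because they carry the motifs through which the pathway acts, and because Irf1 and Irf8 fell while Stat2 and Bst2 rose under at least 1 drug. Each is the 250 bases before a RefSeq start in GRCm38.p6, read 5′ to 3′ on the gene's strand, with matches to the shortened ISRE GAAANNGAA or to the GAS letters TTCNNNGAA, on either strand, in capitals. Irf1 and Irf8 each have a second start in the table, at which neither motif was found and which is not shown. Irf1 lies at chr11:53769764-53770013, plus strand, Irf8 at chr8:120736108-120736357, plus strand, Stat2 at chr10:128270248-128270497, plus strand and Bst2 at chr8:71537473-71537722, minus strand.
Irf1: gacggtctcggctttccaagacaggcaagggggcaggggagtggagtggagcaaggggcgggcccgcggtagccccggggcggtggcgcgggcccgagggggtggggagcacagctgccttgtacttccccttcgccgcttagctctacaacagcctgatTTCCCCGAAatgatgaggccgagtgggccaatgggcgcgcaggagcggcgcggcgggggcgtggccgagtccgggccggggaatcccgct
Irf8: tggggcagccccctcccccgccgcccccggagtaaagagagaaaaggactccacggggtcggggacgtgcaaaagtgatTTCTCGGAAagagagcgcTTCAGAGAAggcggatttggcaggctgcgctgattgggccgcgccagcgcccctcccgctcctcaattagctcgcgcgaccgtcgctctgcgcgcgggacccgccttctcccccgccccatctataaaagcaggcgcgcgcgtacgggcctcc
Stat2: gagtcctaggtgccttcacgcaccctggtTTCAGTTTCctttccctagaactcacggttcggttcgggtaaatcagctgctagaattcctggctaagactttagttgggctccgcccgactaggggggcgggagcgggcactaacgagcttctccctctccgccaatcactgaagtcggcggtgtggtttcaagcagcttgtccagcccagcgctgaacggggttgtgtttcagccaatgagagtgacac
Bst2: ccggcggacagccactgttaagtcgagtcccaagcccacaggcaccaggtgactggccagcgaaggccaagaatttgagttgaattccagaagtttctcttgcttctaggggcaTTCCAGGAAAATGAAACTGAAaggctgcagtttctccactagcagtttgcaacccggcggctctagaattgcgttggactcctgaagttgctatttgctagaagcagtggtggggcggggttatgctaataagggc

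Irf1 held a GAS match starting 90 bases before its start, and Irf8 held 2, starting 171 and 153 bases before. Neither had a shortened ISRE in these bases. Stat2 held a shortened ISRE, on the opposite strand, whose first printed base lies 221 bases before the start. Bst2 held a GAS match and 2 overlapping shortened ISREs within the run of capitals that begins 136 bases before the start. Over the whole windows of 300 bases (250 before and 50 after each start), 61 of the 84 genes had an entry. A shortened ISRE was found for 36 of the 61 (59%) and for 9.8% of the 27025 genes in the table, a GAS for 15 (24.6%) and for 9.6%, and the IRF core AANNGAAA, which can overlap the ISRE, for 46 (75.4%) and for 26.7%. Among the 7 genes with an entry that rose under at least 1 drug, 4 held a shortened ISRE and 3 a GAS. Ifi205, which passed the filter on low counts only through treated libraries, is among the 7 and among the 4. Among the 7 that fell, 3 held a shortened ISRE and 4 a GAS, these being Irf1, Irf2, Irf8 and Ifitm3. Of the 25 tested and not called, 15 held a shortened ISRE and 5 a GAS. A match is a run of letters and not a measured binding site, and Mx1 and Usp18 had no entry.

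Mx1 had the smallest adjusted p of the 56 genes under each drug. Mx1 (chr16:97447035-97462907, minus strand) encodes a dynamin-like GTPase that blocks influenza viruses in mouse cells. Its level was 2.83, 3.43 and 2.68 CPM in the controls, 12.1, 14.3 and 14.7 with lefamulin and 9.01, 9.18 and 8.48 with tiamulin, and the 3 groups were fully separate. It rose 4.60-fold under lefamulin (log2 fold change 2.20, SE 0.14, adjusted p = 2.69e-07) and 2.98-fold under tiamulin (1.57, SE 0.15, adjusted p = 6.84e-06), and both calls held in each fit that left out 1 library. Its neighbour gene Mx2 was rare, with 6, 7 and 16 counts in the controls, 7, 12 and 10 with lefamulin and 18, 21 and 18 with tiamulin. The log2 fold changes of Mx2, 0.11 and 1.05, had adjusted p values of 0.907 and 0.0963.

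Isg20 and Ifit2, effectors that act on RNA, also rose under both drugs. Isg20 (chr7:78913424-78920396, plus strand), an exonuclease of single-stranded RNA, had 5.72, 5.99 and 6.03 CPM in the controls, 11.1, 13.2 and 11.6 with lefamulin and 9.13, 7.37 and 10.6 with tiamulin. All treated libraries exceeded the controls, and tiamulin 2 was the nearest to them. The log2 fold change was 1.02 (SE 0.15, adjusted p = 0.000356) under lefamulin and 0.61 (SE 0.15, adjusted p = 0.0111) under tiamulin, the latter with an adjusted p of 0.052 without tiamulin 3. Ifit2, a tetratricopeptide protein, had 13.1, 10.9 and 9.83 CPM in the controls, 14.7, 15.1 and 15.4 with lefamulin and 18.6, 14.1 and 15.5 with tiamulin. The treated libraries again lay above the controls, by less than for Isg20. Ifit2 rose by 0.42 (SE 0.13, adjusted p = 0.0484) and 0.51 (SE 0.13, adjusted p = 0.0142) on the log2 scale. The lefamulin call was lost without control 2, control 3, any lefamulin library or tiamulin 3 (adjusted p between 0.0529 and 0.204), and the tiamulin call without control 2, control 3 or tiamulin 1 (0.0545, 0.0818 and 0.0705). The 5 other Ifit genes were not tested, and Ifit1, which binds the caps of foreign RNA, had 3, 10 and 7 counts in the controls, 3, 4 and 1 with lefamulin and 6, 4 and 7 with tiamulin.

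The Oas family includes 2′-5′ oligoadenylate synthetases, which make the messenger that activates RNase L, and 6 of its 12 genes were tested. Not every gene of the family need encode an active synthetase, and RNA counts do not measure that activity. Oasl1, which in mice limits the translation of Irf7, had 12.2, 15.1 and 13.5 CPM in the controls, 21.7, 18.1 and 18.4 with lefamulin and 16.7, 18.6 and 16.7 with tiamulin. It rose by 0.51 under lefamulin (SE 0.11, adjusted p = 0.00788), whereas its log2 fold change under tiamulin was 0.34 (SE 0.11, adjusted p = 0.0504). Oasl1 was called higher under tiamulin without control 2 and under 3 other settings (no filter, at least 10 counts in every library, GC and length offsets), with adjusted p values between 0.04 and 0.049, and its difference between the drugs was not called (adjusted p = 0.407). Oas1c had 1.96, 2.10 and 1.73, 2.62, 2.05 and 2.39 and 3.53, 2.999 and 3.47 CPM in the same order and rose under tiamulin by 0.79 (SE 0.21, adjusted p = 0.0176). Its tiamulin call was lost without control 3, tiamulin 1 or tiamulin 3 (adjusted p = 0.0759, 0.0594 and 0.052). The Oas1 genes are close copies of each other, and reads can be divided between them in ways the counts do not show. None of the other 4 tested genes was called, and Oasl2 had a log2 fold change of -0.64 under lefamulin (adjusted p = 0.0734).

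At the cell membranes, Ifitm3 fell under both drugs and Bst2 rose under lefamulin. Ifitm3 (chr7:141009586-141010770, minus strand) had 104, 126 and 120.0 CPM in the controls, 86.3, 81.5 and 76.3 with lefamulin and 76.5, 59.9 and 76.4 with tiamulin. Each treated library was below each control, and tiamulin 2 was the lowest. Ifitm3 fell by 0.52 (SE 0.10, adjusted p = 0.00264) under lefamulin and by 0.71 (SE 0.10, adjusted p = 0.000169) under tiamulin on the log2 scale, in each fit that left out 1 library. Bst2 had 55.9, 65.0 and 61.1 CPM in the controls, 84.5, 85.5 and 84.0 with lefamulin and 81.5, 59.7 and 75.6 with tiamulin. All lefamulin libraries were above the controls, whereas tiamulin 2 lay among the controls. The log2 fold change of Bst2 was 0.48 (SE 0.10, adjusted p = 0.0045) under lefamulin and 0.25 (SE 0.10, adjusted p = 0.0907) under tiamulin, where it became 0.37 with an adjusted p of 8.7e-05 without tiamulin 2. Ifitm2 had 42.5, 45.2 and 38.8, 44.9, 38.0 and 38.6 and 35.7, 26.8 and 41.9 CPM in the 3 groups and was not called (adjusted p = 0.819 and 0.171). Under tiamulin Ifitm2 was called lower without tiamulin 3 (-0.43, adjusted p = 0.0294) and with no filter on low counts (adjusted p = 0.0409), against -0.28 with all libraries.

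Among the regulators, Usp18 rose slightly under both drugs and Parp14 fell under lefamulin. Usp18 removes ISG15 from proteins and blocks the type I interferon receptor. It had 49.9, 50.8 and 52.1 CPM in the controls, 63.5, 58.1 and 57.3 with lefamulin and 64.6, 70.9 and 67.0 with tiamulin. The 3 groups were stepwise, with lefamulin above the controls and tiamulin above lefamulin. The log2 fold change was 0.23 (SE 0.07, adjusted p = 0.0436) under lefamulin and 0.41 (SE 0.07, adjusted p = 0.000942) under tiamulin. Without any library other than tiamulin 2, the lefamulin call of Usp18 was lost, with an adjusted p between 0.0506 and 0.173. Parp14, an ADP-ribosyltransferase, had 17.9, 19.3 and 18.8 CPM in the controls, 13.7, 13.0 and 11.9 with lefamulin and 18.1, 16.5 and 17.2 with tiamulin, so that the lefamulin libraries were lower than all others. It fell by 0.53 under lefamulin (SE 0.10, adjusted p = 0.00214), and its log2 fold change under tiamulin was -0.11 (adjusted p = 0.465).

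Isg15 itself, which Usp18 removes, was not called. Its counts were 33, 31 and 29 in the controls, 23, 29 and 22 with lefamulin and 26, 28 and 46 with tiamulin, and tiamulin 3 alone set the highest value. Its 95% intervals of -0.82 to 0.38 and -0.39 to 0.76 leave room for changes in either direction. Trim25, with 161, 158 and 158, 174, 167 and 162 and 182, 178 and 169 CPM, and Isg20l2, with 105, 109 and 100.4, 106, 102 and 103 and 101, 101 and 94.1 CPM in the same order, were the most precisely measured. Neither was called, with intervals of -0.04 to 0.20 and 0.03 to 0.27 for Trim25 and of -0.14 to 0.11 and -0.21 to 0.04 for Isg20l2. The sensors Ifih1 and Dhx58, which detect double-stranded RNA, were not called either, and Zbp1 was not tested.

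**Figure D3:**
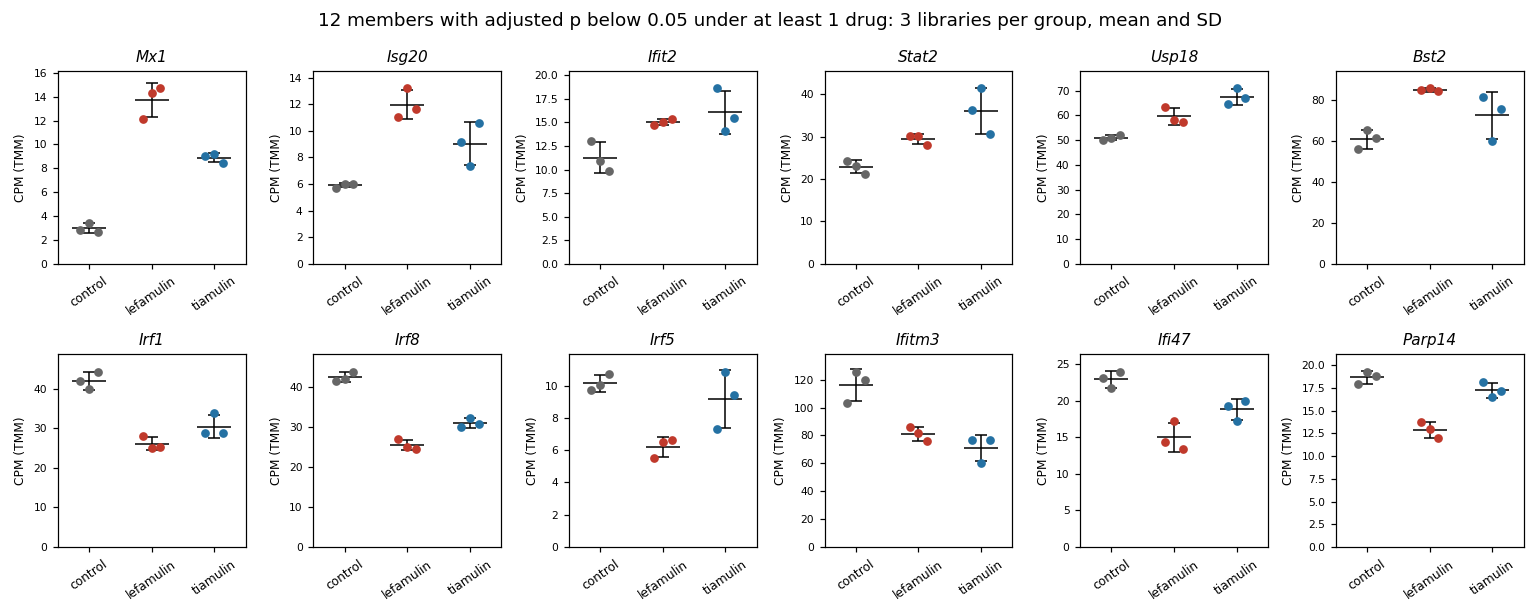
TMM-scaled CPM of 12 genes called under at least 1 drug, on axes that start at 0, with 3 libraries per group as points and the group mean and SD as bars. In Mx1 all 3 groups are separate with lefamulin highest, in Irf1 and Irf8 both drugs lie below the controls with lefamulin lowest, and in Irf5 and Parp14 only the lefamulin libraries lie apart from the controls.

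The immunity-related GTPases and guanylate-binding proteins that were called, 2 under lefamulin and 1 under tiamulin, all fell. With 12 of them tested, 1 gene is near the 7.34% of all tested genes that fell under tiamulin, and 6% did so under lefamulin. The 5 immunity-related GTPases, which act on the vacuoles of intracellular pathogens, were all tested. Ifi47 had 23.0, 21.6 and 24.0 CPM in the controls, 14.4, 17.2 and 13.4 with lefamulin and 19.3, 17.2 and 19.9 with tiamulin, and every treated library was lower than the controls. It fell by 0.61 under lefamulin (SE 0.11, adjusted p = 0.00187), and its tiamulin value was -0.28 (adjusted p = 0.0837). Irgm1 had 38.1, 39.6 and 40.4, 32.3, 33.5 and 32.0 and 37.5, 38.8 and 38.9 CPM in the 3 groups and fell under lefamulin by 0.27 (SE 0.07, adjusted p = 0.0205). The Irgm1 call was lost without control 2, control 3 or any lefamulin library (adjusted p between 0.0567 and 0.0931). It was also lost with no filter and with the replicate number as a block (adjusted p = 0.054 and 0.0526). Of the 11 guanylate-binding proteins, 7 were tested. Gbp9 had 4.33, 3.38 and 4.25 CPM in the controls, 2.88, 2.89 and 3.74 with lefamulin and 1.34, 1.69 and 3.355 with tiamulin, with tiamulin 3 near the controls, and fell under tiamulin by 0.90 (SE 0.28, adjusted p = 0.044). Without any library other than tiamulin 3, its adjusted p lay between 0.0571 and 0.15, whereas without tiamulin 3 the log2 fold change of Gbp9 was -1.39 (adjusted p = 0.00235) and its difference from lefamulin -1.06 (adjusted p = 0.0324). Gbp9 overlaps Gbp8 and Gbp4 on the same strand and Ifi47 overlaps Olfr56, so reads may be shared between them.

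In the p200 family of DNA-binding proteins, 6 of 11 genes were tested. Ifi205 was called, but it passed the filter on low counts only through the groups in which it is high. Its counts were 2, 0 and 4 in the controls, 10, 11 and 11 with lefamulin and 7, 13 and 9 with tiamulin. With so few counts, the log2 fold changes of 2.45 (SE 0.65, adjusted p = 0.0234) and 2.29 (SE 0.66, adjusted p = 0.0291) had 95% intervals of 1.05 to 3.85 and 0.87 to 3.71. The lefamulin call was lost without control 1, control 2 or any lefamulin library (adjusted p between 0.0638 and 0.0789), and the tiamulin call without control 1, control 2 or tiamulin 2 (0.082, 0.0934 and 0.0728). Members of this family are close copies. Ifi27l2a, a small membrane protein of the Ifi27 family, had 2.89, 4.42 and 5.19 CPM in the controls, 7.54, 7.95 and 6.19 with lefamulin and 8.58, 4.75 and 6.83 with tiamulin. It rose under lefamulin by 0.79 (SE 0.23, adjusted p = 0.0386), a call lost without control 1, control 2 or any lefamulin library (adjusted p between 0.0591 and 0.151). Under tiamulin its value was 0.69 (adjusted p = 0.0593), and 0.88 with an adjusted p of 0.0019 without tiamulin 2, the library that overlapped the controls. Ifi27l2a was also called under tiamulin with DESeq2, with no filter and with GC and length offsets, alone or with the replicate block (adjusted p between 0.003 and 0.0488).

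Lefamulin and tiamulin share the mutilin core and differ in the side chain attached to it, and both were given at 37 µg/mL for 2 days, so they were tested directly against each other over the 56 genes as a single pair. The difference passed the test for 2 genes, 1 in each direction. Mx1 was lower under tiamulin by 0.63 on the log2 scale (SE 0.13, 95% interval -0.90 to -0.35, adjusted p = 0.0135), beside 2.05% of all tested genes that were lower. Parp14 was higher under tiamulin by 0.42 (SE 0.10, 95% interval 0.21 to 0.63, adjusted p = 0.0247), beside 2.85% that were higher. Neither differed by more than 1 on the log2 scale, and 0.227% of all tested genes passed that further threshold. Mx1 was not called without lefamulin 2 or lefamulin 3 (adjusted p = 0.076 and 0.082), and Parp14 not without lefamulin 1, 2 or 3 or without tiamulin 1 (adjusted p = 0.0583, 0.0909, 0.121 and 0.074). The genes called higher became 4 without tiamulin 2, where Ifi47 (log2 difference 0.38, adjusted p = 0.0286), Ifi204 (0.46, adjusted p = 0.0101) and Rsad2 (0.71, adjusted p = 0.0425) joined Parp14, and 4.93% of all tested genes were called higher in that fit.

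For the other 54 genes, an adjusted p above 0.05 does not show that the drugs acted alike, and the intervals set the limit. The 95% interval of the log2 difference lay within 1 of 0 for 44 of the 56 genes and within 0.5 for 22, and reached a median of 0.322 to either side of the estimate. The estimate was above 0, that is higher under tiamulin, for 36 of the 56, and the median difference was 0.16, beside 0.00 over all tested genes. At an unadjusted p below 0.05, 16 genes were higher under tiamulin, beside 11.6% of all tested genes, and 4 were lower, beside 9.96%. Of the IRFs, none was called between the drugs. Irf8 differed by 0.28 (interval 0.11 to 0.45, adjusted p = 0.0538), Irf5 by 0.56 (interval 0.23 to 0.90, adjusted p = 0.0511) and Irf1 by 0.22 (interval 0.03 to 0.42, adjusted p = 0.178). Stat2, higher than control under both drugs, differed by 0.29 between them (interval 0.07 to 0.52, adjusted p = 0.123), Usp18 by 0.18 (0.03 to 0.32, adjusted p = 0.145) and Isg20 by -0.40 (-0.70 to -0.10, adjusted p = 0.111). Without 1 library, Irf5 was called higher under tiamulin (without tiamulin 1, adjusted p = 0.0232), Stat2 likewise and Isg20 lower (both without tiamulin 3, adjusted p = 0.0307 and 0.0491). Irf8 and Irf5 were also called with DESeq2 (adjusted p = 0.0374 and 0.0354). When offsets for the GC content and length of genes were added, 10 genes were called higher under tiamulin (Usp18, Irf2, Irgm1, Irf8, Stat2, Ifi47, Ifi204, Parp14, Irf5 and Rsad2) in place of 1, and Mx1 remained the only one lower. Calls also became more frequent over all tested genes with these offsets, with 8.04% higher and 5.17% lower in place of 2.85% and 2.05%.

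**Figure D4:**
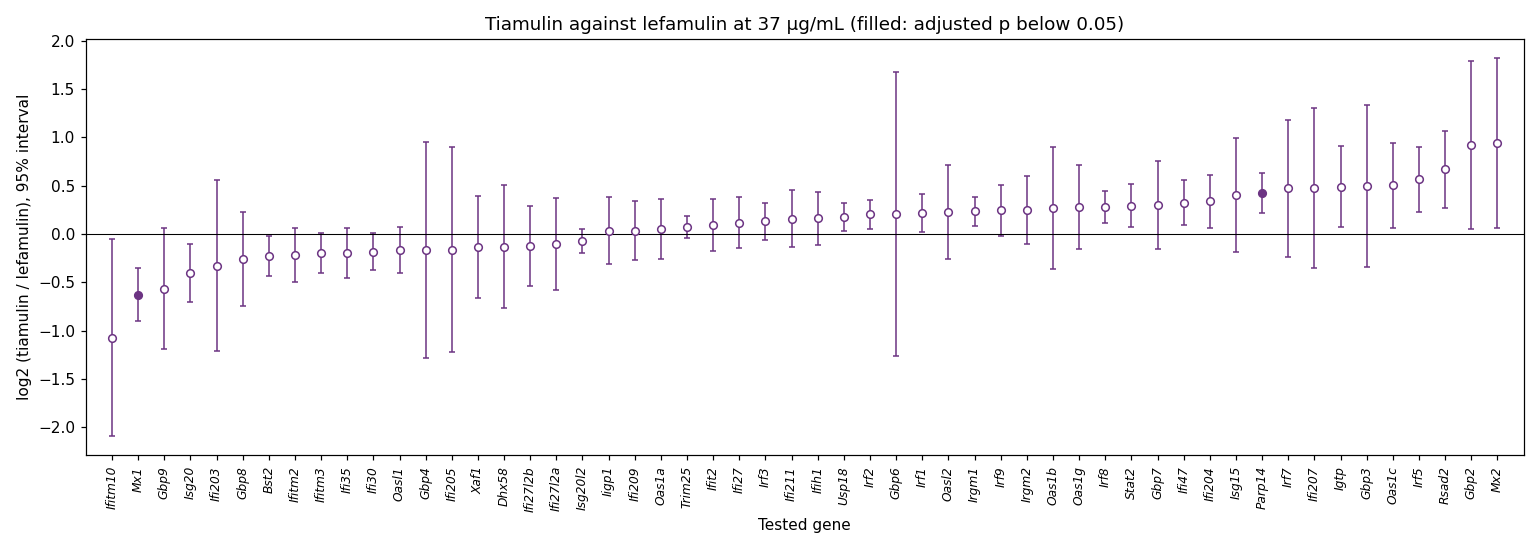
Log2 difference of tiamulin from lefamulin with its 95% interval for 54 of the 56 tested genes, in ascending order, with filled symbols for an adjusted p below 0.05. Mx1 at -0.63 and Parp14 at 0.42 are filled, 35 of the 54 estimates drawn lie above 0, and the intervals of rare genes such as Gbp6 and Ifitm10 span more than 2 log2 units.

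The other genes of the pathway were followed in lists written by role. Their counts stand beside 7.09% of all tested genes that rose and 6% that fell under lefamulin, and 9.08% and 7.34% under tiamulin. Of 21 interferon genes, the ligands, none had enough counts to be tested and 14 had no count, so that Ifnb1 had 1 count over the 9 libraries and the most abundant, Ifna13 and Ifnk, had 13 and 10. Among 9 receptors and Janus kinases, all tested, 1 rose and 1 fell under each drug, a share near that of all tested genes. Jak2, the kinase of the interferon gamma receptor and of several cytokine receptors, had 272, 281 and 280.4 CPM in the controls, 186, 193 and 180.3 with lefamulin and 172, 149.6 and 176 with tiamulin, with no overlap of treated and control libraries. The change of Jak2 was -0.58 on the log2 scale (SE 0.06, adjusted p = 3.93e-05) under lefamulin and -0.75 (SE 0.06, adjusted p = 2.59e-06) under tiamulin. Ifnlr1, the receptor chain specific to type III interferons, had 20.2, 19.6 and 19.0, 24.9, 23.5 and 23.3 and 25.2, 27.2 and 23.7 CPM and rose by 0.29 (adjusted p = 0.0434) and 0.37 (adjusted p = 0.00863).

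Of 14 tested genes of nucleic acid sensing, 1 fell under lefamulin and 2 under tiamulin, and none rose. The 1 under lefamulin is near the 6% of all tested genes. Sting1, the adaptor of cytosolic DNA sensing, had 48.9, 51.9 and 48.9 CPM in the controls, 38.3, 38.4 and 36.7 with lefamulin and 37.3, 39.5 and 36.3 with tiamulin, and fell by 0.40 (adjusted p = 0.00182) and 0.40 (adjusted p = 0.00122) on the log2 scale. Samhd1, which degrades deoxynucleotides, fell under tiamulin by 0.24 (adjusted p = 0.016). Of 9 inhibitors of interferon signalling, Socs3, which blocks Janus kinases, was the 1 that changed. It had 52.7, 41.4 and 50.8 CPM in the controls, 30.8, 29.2 and 28.2 with lefamulin and 32.7, 44.4 and 28.7 with tiamulin, where tiamulin 2 overlapped the controls. Its log2 fold changes were -0.72 (adjusted p = 0.00328) and -0.45 (adjusted p = 0.0328).

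A list of 45 further interferon-stimulated genes had 39 tested. Under lefamulin 2 rose and 6 fell, beside 7.09% and 6% of all tested genes, and under tiamulin 2 rose and 7 fell, beside 9.08% and 7.34%. Cxcl10, a chemokine that attracts T cells, had the smallest adjusted p. It had 37.1, 36.8 and 36.9 CPM in the controls, 18.2, 13.4 and 14.2 with lefamulin and 20.8, 17.3 and 19.1 with tiamulin, and fell by 1.27 (SE 0.11, adjusted p = 4.92e-06) and 0.95 (SE 0.11, adjusted p = 3.94e-05) on the log2 scale, with the treated libraries far below the controls. Slfn9 fell under tiamulin by 0.61 (adjusted p = 4.48e-05), with a lefamulin value of -0.20 (adjusted p = 0.0805). Tor3a rose under both drugs, by 0.31 (adjusted p = 0.0339) and 0.57 (adjusted p = 0.000543), and Tdrd7, a Tudor-domain protein, rose under tiamulin by 0.46 (adjusted p = 0.000575), with 0.23 under lefamulin (adjusted p = 0.0514).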

How the data were processed

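RNA-Seq was performed on 9 libraries of Hepa1-6 cells, 3 per group, grouped by the treatment in the labels. The counts deposited by the authors are whole reads per gene, not normalized, and they also deposited FPKM, which divides counts by gene length and library total. Per the submitters' processing notes, CASAVA 1.8, fastp, HISAT2 2.0.5, featureCounts 1.5.0-p3 and DESeq2 1.20.0 were used with mm10. Whether counting used strand is not given in the sources used here, so a gene and an overlapping gene on the opposite strand cannot be told apart. The deposited start and end equalled those in GRCm38 for 0 of the 84 genes, so positions were taken from GENCODE M21 (GRCm38) by Ensembl identifier and promoters from RefSeq (GRCm38.p6).

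Counts were scaled by TMM, filtered by filterByExpr and tested with edgeR 4.0.16 (R 4.3.3) by the robust quasi-likelihood test, with all 9 libraries and 3 group means in the model and Benjamini-Hochberg adjustment over 14510 genes. SEs and 95% intervals come from that fit. The procedure was tested on simulated data. Totals of 15568887 to 18008105 counts per library leave genes with few counts imprecise, and floors of 3 counts cover counting error only. Genes named are those with an adjusted p below 0.05 in at least 1 comparison, with Stat2, Irf1, Irf3, Irf7, Irf9, Isg15, Ifit1, Bst2, Usp18 and the 5 highest by control FPKM, and at most 4 genes passing the test in each pathway list. Of the 84 genes, 2 count in the totals but are not reported here or drawn. Members, lists and rule were chosen with earlier results of these data known. A few further genes were named after their values were seen, to show an interval, an overlap or an untested value.

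Alternatives were DESeq2's size factors, DESeq2 1.42.0, no filter, at least 10 counts in every library, only the 2 groups compared, the replicate number as a block, offsets for GC content and length (mgcv 1.9.3), limma 3.58.1 on log2(FPKM + 1) and log2(FPKM + 0.1) (genes above FPKM 1 in 3 or more libraries), and leaving out each library.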

Additional observations from a re-analysis of the deposited data

Results flagged for a closer look

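The test of tiamulin directly against lefamulin called 2 of the 56 genes, in edgeR's quasi-likelihood fit of all 9 libraries. With 1 gene in each direction, these are no more frequent than the 2.85% higher and 2.05% lower among all tested genes. Mx1, the antiviral GTPase, had a log2 difference of -0.63, lower under tiamulin, at 13.7 ± 1.39 CPM (SD, n = 3) under lefamulin, 8.89 ± 0.368 under tiamulin and 2.98 ± 0.399 in the controls. Each tiamulin library lay below each lefamulin library, and the call was lost without lefamulin 2 or lefamulin 3 (adjusted p = 0.076 and 0.082). Parp14, the ADP-ribosyltransferase, had a log2 difference of 0.42, higher under tiamulin, at 12.9 ± 0.899 CPM under lefamulin, 17.3 ± 0.823 under tiamulin and 18.7 ± 0.722 in the controls, again with no overlap of the drugs. This call was lost without any lefamulin library or without tiamulin 1 (adjusted p between 0.0583 and 0.121). Whether the libraries of a group were prepared together is not given, and the part of such preparation in both differences was not tested.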

How the results depend on the processing

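The genes called lower under either drug stayed within 1.5 times their number in all 10 alternatives, while the share of all tested genes moved more. Under lefamulin the 8 genes became 6 to 11, beside 3.06% to 14.5% of all tested genes called lower. The 11 were found with GC and length offsets, beside 14.5%. With no filter the number stayed at 8, but Irf2 and Irgm1 were lost and Gbp10 was among the genes that joined. Under tiamulin the 4 genes became 3 to 6, beside 3.6% to 14%. Under lefamulin the 9 genes higher became 5 with the replicate block, where 4.93% of all tested genes were higher in place of 7.09%. They became 4 to 11 without 1 library, beside 3.73% to 12.2%. Under tiamulin the 7 genes higher became 11 with no filter and 11 with GC and length offsets. These stood beside 5.01% and 12.9% of all tested genes in place of 9.08%. They became 5 to 11 without 1 library, beside 5.6% to 11.7%. Of the drugs against each other, the 1 gene higher became 3 with DESeq2, 2 with no filter, 3 with at least 10 counts in every library, 10 with GC and length offsets and 8 with these and the replicate block, beside 2.11%, 2.62%, 3.36%, 8.04% and 6.68% of all tested genes in place of 2.85%. It became 0 with only the 2 groups compared and 0 with the replicate block, where 1.21% and 1.14% of all tested genes were called higher. It was also 0 with limma, for log2(FPKM + 1) and for log2(FPKM + 0.1) alike, where 1.96% and 1.97% were called higher. At an unadjusted p below 0.05, 14 genes were higher in each of the first 2 fits and 13 in each limma fit. The share of all tested genes at that unadjusted threshold is not given for these fits, and it was 11.6% in the main fit. Without 1 library the genes higher were 0 to 4, beside 0.828% to 4.93% of all tested genes. The genes lower were then 0 to 3, beside 0.526% to 3.86%. The 3 were found without tiamulin 3, where 2.39% of all tested genes were lower. The median log2 fold change under lefamulin, -0.02, became 0.00 with DESeq2 and with no filter, where 79 genes were tested, -0.0708 with GC and length offsets, -0.0697 with these and the replicate block, 0.0219 with log2(FPKM + 1) and 0.0233 with log2(FPKM + 0.1), a turn of sign in limma fits that tested 38 of the genes, and -0.0484 to -0.00504 without 1 library. That of the drugs against each other, 0.16, became 0.192 with GC and length offsets, 0.108 with log2(FPKM + 1) and 0.117 to 0.176 without 1 library. The median under tiamulin, 0.07, was 0.00251 to 0.111 without 1 library. Beyond the calls given with their genes, some others were lost under an alternative. Under lefamulin these were Usp18 (no filter, replicate block), Ifit2 (replicate block, both limma fits) and Ifi205 (replicate block). Under tiamulin they were Ifi205 (replicate block) and Gbp9 (only the 2 groups compared). Between the drugs Parp14 was lost with only the 2 groups compared, the replicate block and both limma fits.

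Of the 26 genes of the set that were recomputed one by one, a sign turned in the fits below, each without 1 library, and for none of their called values. The genes of the pathway lists were not recomputed under the alternatives. Over the fits that each left out 1 library, lefamulin against control ranged from -0.0219 to 0.0785 for Irf3 and -0.0454 to 0.0147 for Isg20l2 (each turned without control 2) and from -0.0204 to 0.122 for Irf9 (without control 3). Tiamulin against control ranged from -0.00108 to 0.454 for Irf7 (without tiamulin 2) and -0.0919 to 0.33 for Isg15 (without tiamulin 3). The drugs against each other ranged from -0.0253 to 0.18 for Ifit2 and -0.455 to 0.0224 for Ifi205 (both without tiamulin 1) and -0.316 to 0.0913 for Ifi27l2a (without tiamulin 2). The causes were not tested, apart from the fewer samples in such fits. Between groups, deviations of libraries with the same replicate number correlated between -0.482 and 0.0307, and those with different numbers between -0.425 and 0.497. The GC trends of libraries enter these values, so they cannot show whether the numbers stand for a pairing. Depth limits the 28 untested genes, and with 3 libraries a group a difference between the drugs had a median 95% margin of 0.322 log2 units.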

Other observations

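Some genes below the filter on low counts had values that belong in no comparison above, and they were chosen after their values were seen. Gbp10, a guanylate-binding protein, had 7, 8 and 10 counts in the controls, 0, 1 and 0 with lefamulin and 7, 6 and 1 with tiamulin. With no filter, edgeR's quasi-likelihood test gave Gbp10 an adjusted p of 0.00661 under lefamulin, 0.662 under tiamulin and 0.0868 between the drugs. Ifit3, which pairs with other Ifit proteins, had 0, 0 and 0 counts in the controls, 1, 0 and 4 with lefamulin and 4, 0 and 2 with tiamulin, and its copy Ifit3b had 0, 0 and 0, 2, 1 and 0 and 3, 2 and 3, with reads that may be shared between them. Oas1d had 0, 0 and 0, 2, 3 and 2 and 0, 2 and 0 counts in the same order. For Ifit3, Ifit3b and Oas1d the adjusted p with no filter lay at 0.155 or above in each drug against control.

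Among the 39 tested genes of the list of further interferon-stimulated genes, 2 were higher and 2 lower under tiamulin than under lefamulin, beside 2.85% and 2.05% of all tested genes, and they are named after their values were seen. Pml, which organises nuclear bodies, was higher under tiamulin by 0.43 on the log2 scale (95% interval 0.18 to 0.67, adjusted p = 0.0467), and Lgals3bp, a secreted glycoprotein, by 0.30 (0.13 to 0.46, adjusted p = 0.0427). Slfn9 was lower under tiamulin by 0.41 (interval -0.56 to -0.26, adjusted p = 0.00528) and Eif2ak2, the kinase PKR that halts translation on double-stranded RNA, by 0.35 (-0.50 to -0.21, adjusted p = 0.00953). Eif2ak2 had 46.0, 47.2 and 44.2 CPM in the controls, 49.9, 48.8 and 48.0 with lefamulin and 39.2, 37.3 and 38.4 with tiamulin, and the tiamulin libraries were below all others.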
